A study of Homo sapiens with 42 samples.

Results

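The 6 arrays described here come from A375, a human melanoma line with an activated MAPK pathway, and compare CDT1 siRNA with GL2 siRNA in cells given the same drug, MLN4924. They were chosen by their titles out of 42 arrays in the series: 3 of CDT1 siRNA with MLN4924 and 3 of GL2 siRNA with MLN4924. GL2 siRNA, made against firefly luciferase, has no human target and served as the control. In both groups the siRNA had been on the cells for 48 hours when 27000 cells received 650 nM MLN4924, and RNA was taken 26 hours later. Arrays of the same siRNAs with the vehicle, 0.065% DMSO (3 of CDT1 siRNA, and 6 of GL2 siRNA in 2 sets of 3), show what CDT1 siRNA does without the drug, and 3 arrays each of BRCA1 siRNA and p53 siRNA with MLN4924 serve as other siRNAs under the drug. The model is 1 cell line, and the labels do not say whether replicates were separate cultures. Every p-value therefore measures the spread between arrays of a group, pooled over all 14 groups of the series unless stated. That spread may be technical. The groups not named above had GL2 or p53 siRNA with 5 uM Nutlin or 100 nM daunorubicin, and p53 or BRCA1 siRNA with DMSO.

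CDT1 loads the MCM helicase onto replication origins, together with CDC6 and the origin recognition complex, and so licenses DNA for replication. It is normally destroyed in S phase by cullin-RING ubiquitin ligases, and geminin holds back what is left. MLN4924 (pevonedistat) blocks the NEDD8-activating enzyme, which switches these ligases off, and the CDT1 that then builds up makes cells replicate DNA again without dividing and activates the damage response and p53. The comparison asks what the cells express under the drug when CDT1 has been depleted. Ligases of the same family also degrade NRF2, HIF-1 alpha under normal oxygen, and the ATF4 protein, so their target genes were listed alongside those of p53, replication and mitosis.

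Levels are log2 signals with 1 probe set per gene, where every array was shifted to put its median gene at the same value, and a level was taken as dim where the mean signal of the lower group was under 31.9, the median of all values. A gene was called where limma, fitted to all 42 arrays in their 14 groups, gave a Benjamini-Hochberg adjusted p under 0.05 and a change of at least 1.5-fold. Changes are CDT1 siRNA minus GL2 siRNA on the log2 scale, ± SE.

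CDT1 itself was low in all 3 CDT1 siRNA arrays, and 1 GL2 array stood apart. Its log2 signals were 6.27, 6.08 and 6.15 with CDT1 siRNA under MLN4924, against 8.86, 8.81 and 7.27 with GL2 siRNA. The groups did not overlap, and the third GL2 array was the low one. CDT1 fell by 2.15 (± 0.29, limma adjusted p = 1.08e-05), a 4.44-fold change, and by 2.67 (± 0.25) without GL2 replicate 3. The other CDT1 probe set moved by -1.16, and the one used here carries the suffix of probe sets that can also bind related transcripts. Under DMSO the change was -2.17 (± 0.26), and the difference between the changes under MLN4924 and DMSO was 0.02 (± 0.39, adjusted p = 0.991), or -0.50 without the 3 doubted libraries named below.

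GL2 replicate 3 differed from its own group in BRCA1, the homologous recombination gene that another siRNA of the series targets. BRCA1 had log2 signals of 7.84, 8.12 and 7.84 with CDT1 siRNA, against 7.95, 8.24 and 4.70 with GL2 siRNA. The labelled BRCA1 siRNA arrays under MLN4924 read 4.93, 5.28 and 8.18, so its replicate 3 was high where the GL2 one was low. Over all genes GL2 replicate 3 lay at a median absolute log2 difference of 0.343 and 0.325 from GL2 replicates 1 and 2, which were 0.181 apart. It lay at 0.211 and 0.225 from BRCA1 replicates 1 and 2, while BRCA1 replicate 3 lay at 0.209 and 0.183 from GL2 replicates 1 and 2. Results against GL2 siRNA under MLN4924 are therefore given with all arrays as labelled. For many calls that the library labelled GL2 replicate 3 changes, the value or count without it is given too. The comparison with BRCA1 siRNA is given mainly without the doubted libraries. These 2 libraries and p53 siRNA daunorubicin replicate 1 are the 3 doubted libraries left out in some values below. The daunorubicin array had a signal ratio between actin probe sets, given below, far under those of the other arrays. BRCA1 itself was not called (0.97 ± 0.58, adjusted p = 0.384), and was -0.16 without GL2 replicate 3.

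**Figure D1:**
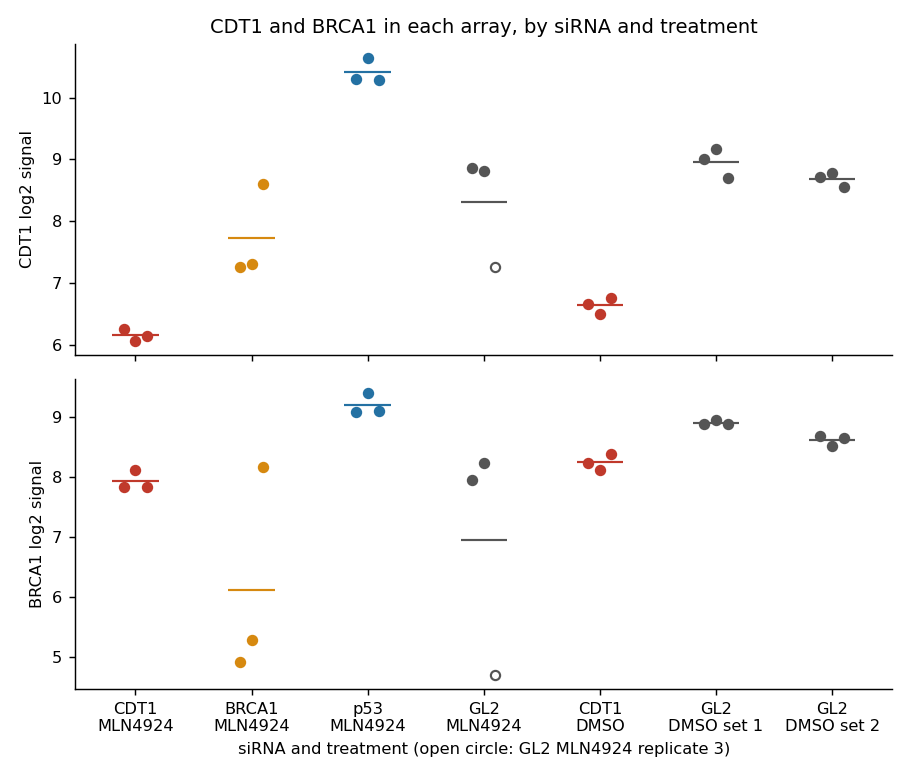
Log2 signal of CDT1 (top) and BRCA1 (bottom) in each array, by siRNA and treatment; points are arrays, lines are group means and the open circle is GL2 MLN4924 replicate 3. CDT1 is low in all 6 CDT1 siRNA arrays, and the open circle sits at 7.27 for CDT1 and 4.70 for BRCA1, beside BRCA1 siRNA replicates 1 and 2.

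Of 19775 genes, 386 (1.95%) rose and 533 (2.7%) fell with CDT1 siRNA under MLN4924. Without GL2 replicate 3, 518 (2.62%) were higher and 734 (3.71%) lower, and 760 genes were called in the same direction both times. Of those, 737 also had no overlap between the CDT1 and GL2 arrays (283 higher, 454 lower), where 25.2% of all genes had none. Dim genes made up more of the risers: 199 of the 283 and 415 of the 454 were not dim. The split depends on scaling, since without centring 704 genes were higher and 353 lower, a shift of 0.11 in the median of all genes. A fit of the 2 groups alone, which cannot borrow the spread of the other groups, called 8 genes, and 3293 had an unadjusted p under 0.05. In bulk RNA, fewer cells that express a gene and less of its RNA per cell cannot be told apart.

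As a check of the label, 13 of 20 measured melanocyte lineage genes lay over the median of all values in both groups, among them MITF, SOX10 and S100B. The pigment enzyme TYR was not among the 13, nor were PMEL, MLANA, TYRP1 and DCT. The summed signal of the 20 was 2610 to 2690 with CDT1 siRNA, against 2290 to 2610 with GL2 siRNA. Of the 20, 2 (10%, beside 1.95% over all genes) rose and 0 fell with CDT1 siRNA, with a median of -0.04. At an unadjusted p under 0.05 by limma 0 were lower. The risers were S100B, a calcium-binding protein used as a melanoma marker (1.04 ± 0.23, adjusted p = 0.00413), whose dim second probe set moved by -0.13, and the transcription factor SOX9 (0.82). Summed fibroblast markers read 1360 to 1420 with CDT1 siRNA, against 1510 to 1630 with GL2 siRNA, with 6 of 10 and 7 of 10 over the median. Epithelial markers summed to 3880 to 4960 with CDT1 siRNA, against 4310 to 4720 with GL2 siRNA, with 5 and 6 of 12 over the median. Leukocyte markers summed to 1790 to 2260 with CDT1 siRNA, against 1320 to 1960 with GL2 siRNA, with 4 of 11 over the median in each. The keratins KRT5, KRT7, KRT8, KRT14 and KRT18 were over the median in both groups, as were HLA-DRA, ITGAM, LYZ and MS4A1 of the leukocyte list. EPCAM and PTPRC were not over the median in either group. The part of these markers in the results was not tested. The 5′ to 3′ signal ratio of actin probe sets was 0.871 to 0.918 with CDT1 siRNA, against 0.888 to 0.905 with GL2 siRNA. RNA quality was not even over the series. In p53 siRNA daunorubicin replicate 1 the ratio was 0.0118, against 0.649 and 0.727 in replicates 2 and 3 of its group. That array stayed in the fit of all groups, and so in the pooled spread, except where the doubted libraries were left out.

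The list of ATF4 and the unfolded protein response had the most lower members. ATF4 is the transcription factor whose translation rises when the integrated stress response slows other protein synthesis, and its targets supply amino acids or feed back on the stress. Of 30 genes of ATF4 and the unfolded protein response, 12 (40%) fell and 1 (3.33%) rose with CDT1 siRNA under MLN4924. Over all genes 2.7% fell and 1.95% rose. The median change was -0.53 against -0.04 over all genes tested. Without GL2 replicate 3, 17 (56.7%, beside 3.71% over all genes) were lower and 0 higher, with a median of -0.68. At an unadjusted p under 0.05 by limma 0 were higher too. In 17 of the 30 every CDT1 array lay below every GL2 array, and in 1 above. Over all genes 25.2% had no overlap, counting both directions. Without centring, 11 of the 30 were called lower and 1 higher.

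ATF4 had log2 signals of 10.05, 10.31 and 10.08 with CDT1 siRNA, against 11.46, 11.44 and 10.83 with GL2 siRNA. The groups did not overlap and GL2 replicate 3 was the lowest of its group. ATF4 fell by 1.10 (± 0.13, limma adjusted p = 9.03e-07), and by 1.30 without that array. CHAC1, which degrades glutathione, read 6.25, 6.42 and 6.79 with CDT1 siRNA, against 8.84, 8.32 and 7.64 with GL2 siRNA. It fell by 1.78 (± 0.32). VLDLR, the very low density lipoprotein receptor, read 5.20, 5.27 and 5.29 with CDT1 siRNA, against 7.20, 7.13 and 6.68 with GL2 siRNA, and fell by 1.75 (± 0.19). Neither gene's groups overlapped.

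The feedback genes fell as well. PPP1R15A, which brings a phosphatase to eIF2 alpha and so ends the response, read 8.50, 8.74 and 8.78 with CDT1 siRNA, against 10.04, 10.04 and 9.77 with GL2 siRNA (-1.27 ± 0.30). TRIB3, a pseudokinase that restrains ATF4, read 9.68, 9.86 and 9.92 with CDT1 siRNA, against 11.33, 11.35 and 10.10 with GL2 siRNA (-1.10 ± 0.22). The gap to GL2 replicate 3 was small in TRIB3, and the change was -1.52 without it. ATF3, a stress-induced repressor, read 8.39, 8.48 and 8.56 with CDT1 siRNA, against 9.83, 9.98 and 9.44 with GL2 siRNA (-1.27 ± 0.16). DDIT3 (CHOP), which promotes death under lasting stress, was lower by a fold of 2.01 (adjusted p = 0.0369), and DDIT4, an inhibitor of mTOR, fell by 0.90 (± 0.13) on the log2 scale. DDIT3 was lost as a call when some single arrays were left out, with adjusted p up to 0.173.

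Among the amino acid enzymes, ASNS, asparagine synthetase, read 9.15, 9.34 and 9.21 with CDT1 siRNA, against 10.61, 10.65 and 9.52 with GL2 siRNA. It fell by 1.03 (± 0.21), and by 1.40 without GL2 replicate 3, whose level was nearest to the CDT1 arrays. The serine enzyme PHGDH fell by 0.76 (± 0.18) and the mitochondrial SHMT2 by 0.65 (± 0.13). In PHGDH the groups overlapped, with GL2 replicate 3 at 9.31 and the highest CDT1 array at 9.37. XBP1, the factor of the IRE1 branch, fell by 0.74 (± 0.20), while its dim second probe set moved by 0.40. SDF2L1, a chaperone cofactor of the endoplasmic reticulum, rose by 0.61 (± 0.19) and was 0.37 and not called without GL2 replicate 3. CEBPG, a partner of ATF4, was -0.66 and not called, and -1.18 and called without it.

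**Figure D2:**
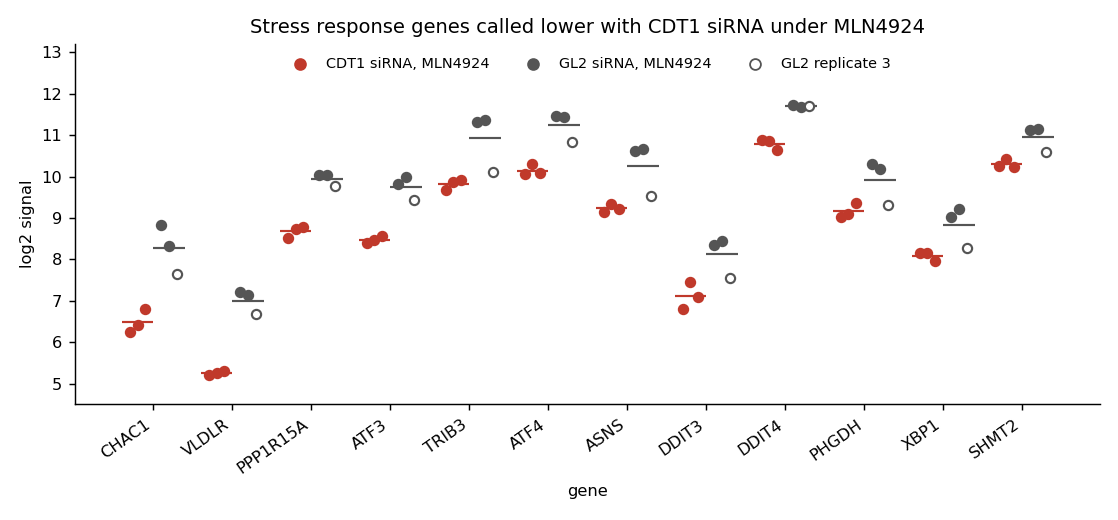
Log2 signal of the 12 stress response genes called lower, with CDT1 siRNA (red) left of GL2 siRNA (grey) under MLN4924; points are arrays, lines are means and open circles are GL2 replicate 3. Every CDT1 array lies below every GL2 array in all of them but PHGDH, and the open circle is the lowest GL2 array in all but DDIT4.

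ATF4 binds, with C/EBP partners, an element written TGATGNAA, which was searched on both strands of the 300-base RefSeq promoters (250 bases before to 50 after the start of each gene) of build GRCh38.p14. It was present in 2.62% of 15384 promoters of genes tested here and in 5 of 28 promoters of the list (17.9%). Among the 15 list members with a promoter that were lower without GL2 replicate 3, 4 held it (26.7%), and of the other 13, 1 did (7.69%). The 3 below belong to genes described above, and the capitals mark the element. It begins 191 bases before the start of ATF3, 209 before that of CHAC1 (where it lies on the reverse strand and so reads TTGCATCA) and 68 before that of ASNS. No other motif was searched, a match is a description of these letters and not a site, and binding was not measured. The list was chosen as genes of ATF4 and the unfolded protein response, so a higher share than other promoters could be foreseen. The part of ATF4 in the lower levels was not tested.
ATF3 promoter, chr1:212565157-212565456, plus strand: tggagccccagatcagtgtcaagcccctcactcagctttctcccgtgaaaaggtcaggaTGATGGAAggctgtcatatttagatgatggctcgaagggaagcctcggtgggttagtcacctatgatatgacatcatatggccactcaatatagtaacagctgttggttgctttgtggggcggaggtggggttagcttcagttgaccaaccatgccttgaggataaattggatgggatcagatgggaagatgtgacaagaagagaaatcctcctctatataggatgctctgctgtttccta
CHAC1 promoter, chr15:40953221-40953520, plus strand: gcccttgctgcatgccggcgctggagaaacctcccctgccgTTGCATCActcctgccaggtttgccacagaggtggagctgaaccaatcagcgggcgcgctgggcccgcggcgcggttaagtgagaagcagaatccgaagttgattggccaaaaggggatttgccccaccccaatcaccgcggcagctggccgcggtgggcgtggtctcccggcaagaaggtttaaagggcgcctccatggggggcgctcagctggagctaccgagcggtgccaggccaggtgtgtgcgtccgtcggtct
ASNS promoter, chr7:97872359-97872658, minus strand: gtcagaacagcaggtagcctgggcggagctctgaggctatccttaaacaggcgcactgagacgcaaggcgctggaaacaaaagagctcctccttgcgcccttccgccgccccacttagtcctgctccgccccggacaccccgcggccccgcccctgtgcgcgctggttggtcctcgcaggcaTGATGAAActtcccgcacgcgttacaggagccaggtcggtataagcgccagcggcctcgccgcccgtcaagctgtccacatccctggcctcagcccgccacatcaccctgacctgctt

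Part of this lower level was present without the drug. Under DMSO, 551 genes (2.79%) were higher and 706 (3.57%) lower with CDT1 siRNA, from arrays that share none with the comparison under MLN4924. In the stress list 1 gene was higher and 5 lower there, with a median of -0.27. CHAC1 differed by -1.74 (± 0.28) under DMSO, TRIB3 by -0.78 and ATF4 by -0.74, all called, while ASNS (-0.29), VLDLR (-0.40) and ATF3 (-0.23) were not called. The difference between the 2 changes was called for VLDLR (-1.35 ± 0.25, adjusted p = 0.0033) and ATF3 (-1.04 ± 0.21, adjusted p = 0.00691). Over all genes that difference was called higher for 104 (0.526%) and lower for 141 (0.713%), and for 247 and 133 without centring. Without the 3 doubted libraries it was called higher for 314 (1.59%) and lower for 357 (1.81%), and for 8 stress genes, all lower, ASNS (-1.12) and TRIB3 (-0.74) among them.

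Some of the lower genes were also lower under DMSO. Of the 533 genes that fell under MLN4924, 216 were also called lower under DMSO (40.5% of the MLN4924 genes and 30.6% of the 706), and 5 were called higher there. Of the 386 that rose, 136 were also higher under DMSO (35.2% and 24.7%), and 1 was lower. Without GL2 replicate 3 the shared genes numbered 250 lower and 159 higher. The 5 genes described next were picked after their values were seen, from the large falls that were not dim, because they were also called lower under DMSO. Others as large were not called there, such as KRTAP3-1, given below.

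COMMD2, a COMM domain protein of the endosomal Commander complex, showed the largest fall of the 5. Its log2 signals were 7.80, 6.93 and 6.01 with CDT1 siRNA, against 10.79, 10.22 and 9.78 with GL2 siRNA, a change of -3.35 (± 0.33, limma adjusted p = 4.11e-08) or 10.2-fold. The groups lay far apart, though the CDT1 arrays spread over more than the GL2 ones. Under DMSO COMMD2 changed by -3.30 (± 0.28), and its second probe set moved by -1.79 under MLN4924. TFAM, which packages and transcribes mitochondrial DNA, read 8.65, 8.56 and 8.40 with CDT1 siRNA, against 10.45, 10.58 and 10.21 with GL2 siRNA. It fell by 1.87 (± 0.17), beside -1.90 under DMSO, and all 4 of its probe sets were lower, the least by 1.32.

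ANP32E, a chaperone that removes the histone variant H2A.Z, read 9.62, 9.43 and 9.34 with CDT1 siRNA, against 11.28, 11.33 and 10.95 with GL2 siRNA (-1.72 ± 0.13, and -1.89 under DMSO). SEC23A, a coat protein of vesicles leaving the endoplasmic reticulum, read 8.78, 8.54 and 8.62 with CDT1 siRNA, against 10.40, 10.31 and 10.33 with GL2 siRNA (-1.70 ± 0.14, and -2.02 under DMSO). IFNAR1, a chain of the type I interferon receptor, read 5.64, 5.52 and 5.81 with CDT1 siRNA, against 7.38, 7.26 and 7.40 with GL2 siRNA (-1.69 ± 0.20, and -1.47 under DMSO). None of these groups overlapped, and the difference between the MLN4924 and DMSO changes was not called for any of COMMD2, TFAM, ANP32E, SEC23A and IFNAR1. IFNAR1 probe sets disagreed, with changes from -1.69 to 0.36, as did those of ANP32E, from -1.91 to -0.32. SEC23A and IFNAR1 are 2 of the 8 genes that the fit of the 2 groups alone also called. The siRNA sequence was not used here, so pairing of the siRNA with these transcripts was not tested.

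**Figure D3:**
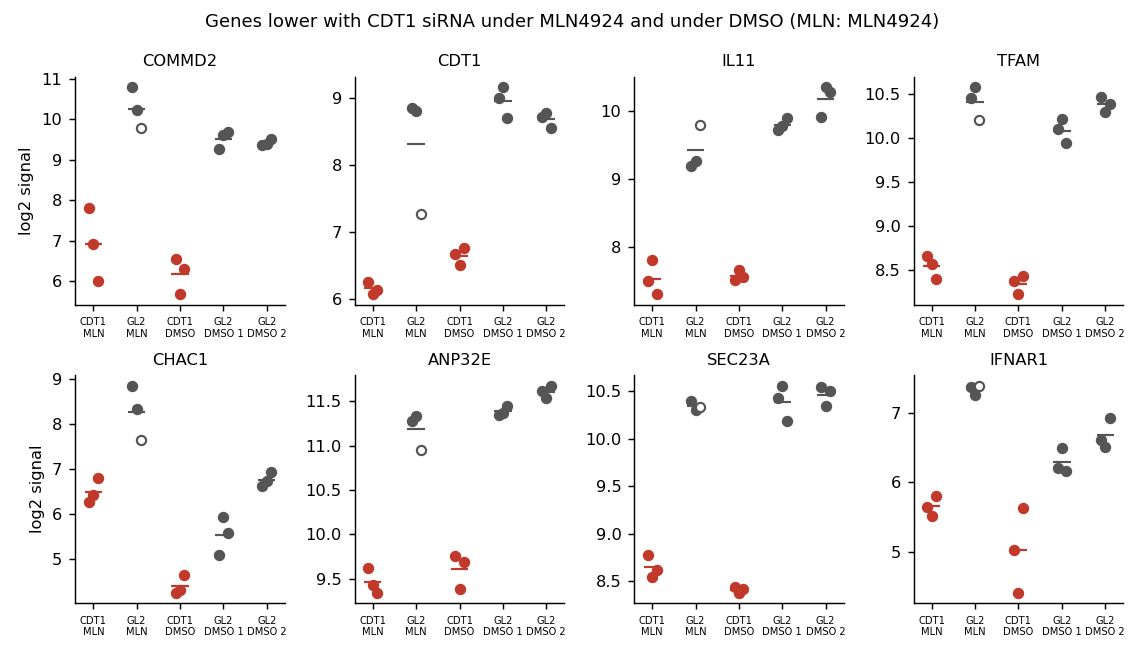
Log2 signal of 8 genes lower with CDT1 siRNA (red) than with GL2 siRNA (grey) under MLN4924 and under DMSO; points are arrays, lines are means, the open circle is GL2 MLN4924 replicate 3, and each panel has its own axis. In every panel the CDT1 arrays lie below the GL2 arrays of the same treatment.

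The p53 targets called lower under MLN4924 had no counterpart under DMSO, where the called ones were higher. Of 35 measured targets, 4 (11.4%, beside 2.7% over all genes) fell and 0 rose under MLN4924. The median was -0.32, with 1 higher at an unadjusted p under 0.05 by limma. The count lower was 6 (17.1%, beside 3.71%) without GL2 replicate 3. Under DMSO 7 (20%, beside 2.79% over all genes) rose and 0 fell. The median there was 0.35, with 0 lower at an unadjusted p under 0.05 by limma. The difference between the 2 changes was called lower for 10 (28.6%, beside 0.713% over all genes). It was called higher for 0, again 0 at an unadjusted p under 0.05 by limma. Without the 3 doubted libraries it was called lower for 17 (48.6%, beside 1.81%). Scaling bears on the fall under MLN4924, where without centring only TP53INP1 of the 35 was called, but not on the difference, which was again called for 10.

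CDKN1A (p21), the inhibitor that holds cyclin-dependent kinases, had log2 signals of 11.37, 11.55 and 11.33 with CDT1 siRNA under MLN4924, against 11.74, 11.67 and 11.70 with GL2 siRNA. The arrays did not overlap, but the change was small and not called (-0.29 ± 0.17, adjusted p = 0.373). Under DMSO CDKN1A averaged 10.55 with CDT1 siRNA and 9.13 with GL2 siRNA, a rise of 1.41 (± 0.15, adjusted p = 5.83e-08). The difference between the changes was -1.70 (± 0.22, adjusted p = 0.000118). MDM2, the ligase that degrades p53, read 11.64, 11.94 and 11.61 with CDT1 siRNA, against 12.21, 12.12 and 11.86 with GL2 siRNA, with overlap. It was called under neither treatment (-0.33 ± 0.16 under MLN4924 and -0.02 under DMSO).

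GDF15, a secreted stress cytokine, read 11.62, 11.87 and 11.47 with CDT1 siRNA under MLN4924, against 12.49, 12.50 and 12.24 with GL2 siRNA. These did not overlap, yet the change of -0.76 (± 0.25, adjusted p = 0.0549) missed the threshold, while it was 1.02 and called under DMSO. SESN1, a sestrin that restrains mTORC1, differed by -0.07 under MLN4924 and by 1.07 under DMSO (difference -1.14 ± 0.18). TNFRSF10B, a death receptor for TRAIL, differed by -0.05 and by 0.87 (difference -0.92 ± 0.17). The 4 genes that fell under MLN4924 were DDB2 (-0.62), which recognises ultraviolet damage, TP53INP1 (-0.74), which promotes autophagy and death, the death receptor FAS (-0.59) and cyclin G2, CCNG2 (-0.64). TP53INP1 was -0.41 and not called over the mean of its 3 probe sets, and its difference between treatments was then 0.071 in place of -1.40. CCNG2 was -0.45 and not called without GL2 replicate 3, where PPM1D, the phosphatase that turns p53 off, was called at -0.66.

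A few hypoxia targets were lower under MLN4924, and a few were higher under DMSO. Of 25 measured, 4 (16%, beside 2.7% over all genes) fell and 0 rose under MLN4924. The median was -0.24, with 0 higher at an unadjusted p under 0.05 by limma. Without GL2 replicate 3, 7 (28%, beside 3.71%) were lower, VEGFA (-0.90) and ENO2 (-1.01) among them, and without centring 2. Under DMSO 3 (12%, beside 2.79% over all genes) rose and 0 fell. The median there was 0.04, with 1 lower at an unadjusted p under 0.05 by limma. ALDOC, a glycolytic aldolase, read 9.89, 10.10 and 10.00 with CDT1 siRNA, against 11.06, 10.84 and 10.68 with GL2 siRNA, with no overlap. It fell by 0.86 (± 0.17) under MLN4924 and rose by 0.81 under DMSO, a difference of -1.67 (± 0.22, adjusted p = 0.000131). PFKFB4, which sets the level of a glycolysis activator, fell by 1.15 (± 0.25), the mitophagy receptor BNIP3L by 0.67 and the collagen lysyl hydroxylase PLOD2 by 0.65. The difference was called for 6 hypoxia targets (24%), all lower, beside 0.713% lower over all genes. They were ALDOC, ANKRD37 (-1.18), ENO2 (-1.12), the prolyl hydroxylase P4HA2 (-1.06), the MYC antagonist MXI1 (-0.86) and BNIP3L (-0.72).

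**Figure D4:**
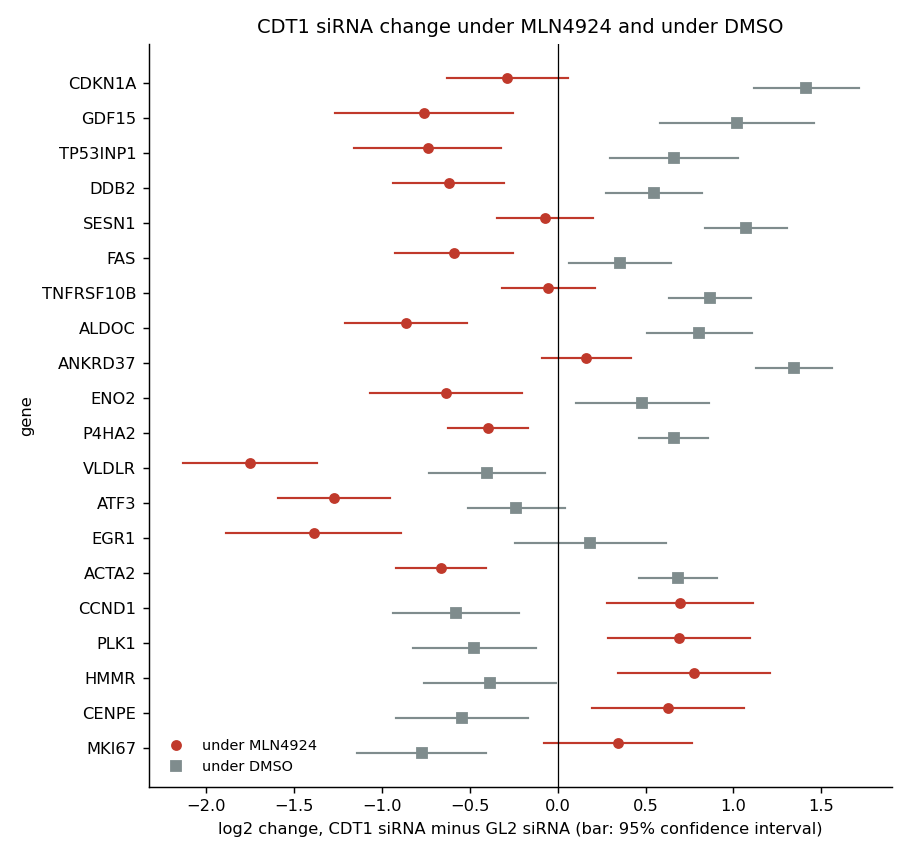
Log2 change of 20 genes with CDT1 siRNA relative to GL2 siRNA, under MLN4924 (red circles) and under DMSO (grey squares), with 95% confidence intervals; all have a called difference between the 2 changes. From CDKN1A to ACTA2 the change under MLN4924 is the lower one, and from CCND1 to MKI67 it is the higher one.

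Mitotic genes ran the other way, but few were called. Of 40, 3 (7.5%, beside 1.95% over all genes) rose and 0 fell under MLN4924, with a median of 0.17. At an unadjusted p under 0.05 by limma 0 were lower. The risers were the kinases CDK1 and PLK1 and the spindle protein HMMR. PLK1 read 6.95, 6.86 and 6.80 with CDT1 siRNA, against 6.32, 6.24 and 5.98 with GL2 siRNA, without overlap (0.69 ± 0.20, adjusted p = 0.0265). HMMR changed by 0.77 (± 0.21) and CDK1 by 0.75 (± 0.23). GL2 replicate 3 decides these calls, because without it none of the 40 was called, 3 were higher and 5 lower at an unadjusted p under 0.05, and the median was -0.09. Under DMSO 6 mitotic genes (15%, beside 3.57% over all genes) fell and 0 rose, with a median of -0.42. There 0 were higher at an unadjusted p under 0.05 by limma. The difference was called higher for PLK1 (1.17), HMMR (1.16), CENPE (1.17) and MKI67 (1.12), 10% of the list beside 0.526% over all genes. It was called for 7 genes without the 3 doubted libraries and for 1 without GL2 replicate 3 alone. Scaling moved that count too, to 11 without centring and 9 after quantile normalization.

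The licensing and replication genes other than CDT1 moved little with all arrays. CDT1 was the 1 licensing gene of 20 called lower under MLN4924. GINS1, a subunit of the replicative helicase, was the 1 of 39 fork and nucleotide genes (-0.62 ± 0.19), with overlapping groups. The share lower in the fork and nucleotide list, 2.56%, was near the 2.7% over all genes. The GINS1 call was lost without centring (-0.51) and after quantile normalization (-0.49), where 1 gene of that list was higher and 0 lower, with 4 and 3 lower at an unadjusted p under 0.05 by limma. Without GL2 replicate 3 the counts were 3 (15%) and 6 (15.4%), all lower, beside 3.71% over all genes. They then included MCM7 (-0.98), a subunit of the helicase that CDT1 loads, CDC6 (-0.70), its loading partner, and RRM2 (-0.72), a subunit of ribonucleotide reductase. MCM7 read 9.44, 9.61 and 9.50 with CDT1 siRNA, against 10.44, 10.54 and 9.67 with GL2 siRNA, so that GL2 replicate 3 stood beside the CDT1 arrays. Geminin, GMNN, was not called (0.10 ± 0.19, and -0.18 without that array).

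Among 20 genes of the G1 to S transition, CCND1 and RBL1 rose (10%) and CDK6 fell (5%), beside 1.95% and 2.7% over all genes. CCND1 (cyclin D1) read 10.86, 11.36 and 11.16 with CDT1 siRNA, against 10.45, 10.31 and 10.53 with GL2 siRNA, without overlap. The change was 0.70 (± 0.20, adjusted p = 0.0293), beside -0.58 under DMSO, and the difference was 1.28 (± 0.27, adjusted p = 0.011). CDK6, its kinase partner, read 10.47, 10.63 and 10.42 with CDT1 siRNA, against 11.31, 11.23 and 11.11 with GL2 siRNA, without overlap. It fell by 0.71 (± 0.13), and by more under DMSO (-1.19 ± 0.11), although that difference was not called. The CDK6 probe sets disagreed under MLN4924, and the 6 brighter ones of 7 ranged from -0.71 to 0.34. RBL1 (p107) rose by 0.65 and was not called without GL2 replicate 3, where 3 genes of this list were higher and 2 lower.

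In the family that MLN4924 acts on, 2 of 37 genes (5.41%) fell and 0 rose, beside 2.7% lower and 1.95% higher over all genes. At an unadjusted p under 0.05 by limma 0 were higher. KEAP1, the adaptor that presents NRF2 to its ligase, read 8.63, 8.96 and 8.70 with CDT1 siRNA, against 9.65, 9.57 and 9.40 with GL2 siRNA (-0.77 ± 0.11, adjusted p = 3.16e-05). It changed by -0.12 under DMSO, and the difference was called (-0.65 ± 0.15). CUL5, a cullin, fell by 0.79 (± 0.15), beside -0.71 under DMSO, but the 3 brighter of its 4 probe sets ranged from -0.79 to 0.07 under MLN4924. NFE2L2, which encodes NRF2, fell by 0.61 (± 0.15), the 1 gene called of 27 NRF2 genes measured (3.7%). Without GL2 replicate 3, 1 gene of the NRF2 list was higher and 2 were lower. In both KEAP1 and NFE2L2 the groups did not overlap. NFE2L2 was -0.50 without centring, under the 1.5-fold minimum.

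Signalling and secreted genes moved in both directions. IL11, a cytokine of the interleukin-6 family, read 7.49, 7.80 and 7.30 with CDT1 siRNA, against 9.19, 9.27 and 9.80 with GL2 siRNA. It fell by 1.89 (± 0.23), beside -2.41 under DMSO. Its relative LIF fell by 0.73 and the NF-kB subunit NFKB2 by 0.77. Of 26 genes of that list 3 (11.5%, beside 2.7% over all genes) were thus lower and 0 higher. At an unadjusted p under 0.05 by limma 1 was higher. The chemokines CXCL1 and CXCL8 turned on GL2 replicate 3. CXCL1 read 9.93, 9.97 and 9.85 with CDT1 siRNA, against 8.50, 8.45 and 10.23 with GL2 siRNA, and was called only without that array (1.44, against 0.86 with it). CXCL8 was 1.25 and called without it, and 0.62 with it.

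EGR1, an immediate early transcription factor, read 5.86, 5.30 and 5.83 with CDT1 siRNA, against 7.15, 7.34 and 6.67 with GL2 siRNA, without overlap. It fell by 1.39 (± 0.24) and differed by 0.19 under DMSO, a called difference of -1.58 (± 0.32). Its 3 probe sets ranged from -1.48 to -0.18. The feedback inhibitor SPRY2 rose by 0.64 (± 0.18), and FOS, dim at 4.03 mean signal with CDT1 siRNA and 19.63 with GL2 siRNA, fell by 2.32. XIAP, an inhibitor of caspases, fell by 0.89 (± 0.17), with all 7 probe sets lower. NBN, a sensor of DNA breaks, fell by 0.82 (± 0.16), beside -0.80 under DMSO, and H2BC12, a histone gene, by 0.92 (± 0.12). Of 29 interferon-stimulated genes, ISG20 (1.07) and ISG15 (0.72) rose and IFIT3 (-0.75) fell. These are 6.9% and 3.45% of the list, beside 1.95% and 2.7% over all genes. ISG15 was 0.53 and not called without GL2 replicate 3, where the 1 higher and 1 lower (3.45% each) were near the shares over all genes.

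Matrix genes split as well, with 4 of 33 (12.1%) lower and 2 (6.06%) higher, beside 2.7% and 1.95% over all genes. CCN2, a matrix protein under YAP control, read 10.29, 10.46 and 10.35 with CDT1 siRNA, against 11.96, 11.95 and 11.11 with GL2 siRNA (-1.30 ± 0.25, and -1.92 under DMSO). COL5A1 (-1.86) fell while dim with CDT1 siRNA, and COL6A3 (-1.07) and FN1 (-1.41) fell but were not called without GL2 replicate 3, which was the highest of its group in both. TNC (0.74) and LAMA4 (0.83) rose, though the LAMA4 probe sets ranged from -0.60 to 1.52. Without GL2 replicate 3 the counts were 3 lower (9.09%) and 7 higher (21.2%), beside 3.71% and 2.62% over all genes. ACTA2, smooth muscle actin, fell by 0.66 (± 0.13) under MLN4924 and rose by 0.68 under DMSO, a difference of -1.35 (± 0.17). LUM, lumican, read 8.63, 8.76 and 8.76 with CDT1 siRNA, against 6.82, 6.50 and 8.13 with GL2 siRNA, and rose by 1.57 (± 0.29), beside 1.72 under DMSO. ACTA2 and LUM belong to the fibroblast markers whose sums are given above.

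No gene was called in the homologous recombination and Fanconi list (0 of 23, with 2 higher and 0 lower at an unadjusted p under 0.05 by limma), the proteasome (0 of 28, with 1 higher and 7 lower) or sterol and fatty acid synthesis (0 of 24, with 3 higher and 4 lower). In ribosome biogenesis RRP12 fell by 0.77 (± 0.16), the 1 called of 23 (4.35%, beside 2.7% lower over all genes). Without GL2 replicate 3, 1 sterol and fatty acid gene was called higher and 2 ribosome biogenesis genes lower.

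**Figure D5:**
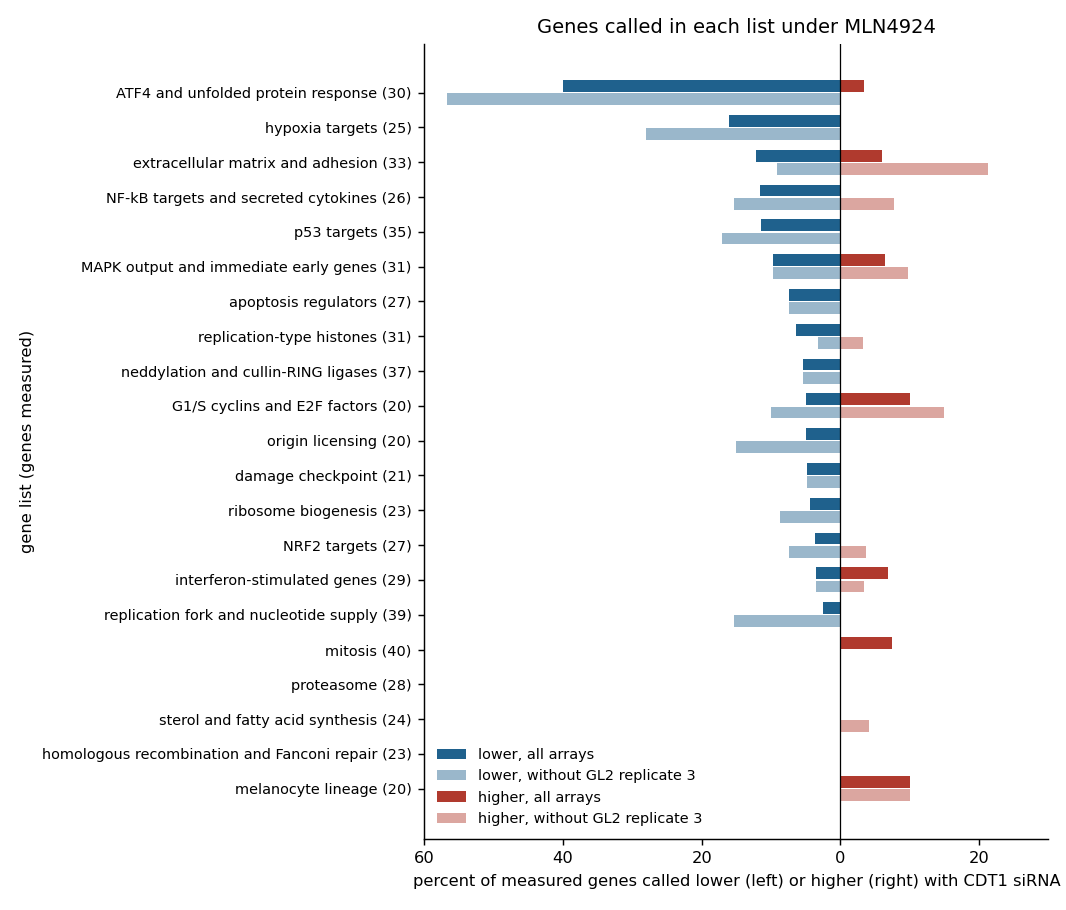
Percent of the measured genes of each list called lower (blue, left) or higher (red, right) with CDT1 siRNA relative to GL2 siRNA under MLN4924, with all arrays (dark) and without GL2 replicate 3 (pale); the marker lists of other cell types are not drawn. The list of ATF4 and the unfolded protein response reaches furthest left in both, at 12 and 17 of 30 genes.

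The largest changes by the stated rule were mostly dim in the lower group. All 12 largest risers of that rule, which asks for a call with and without GL2 replicate 3, were dim, led by SLC46A3, a lysosomal membrane transporter, which read 6.05, 6.28 and 6.52 with CDT1 siRNA, against 1.87, 1.96 and 3.66 with GL2 siRNA. It rose by 3.78 (± 0.67), and by 3.41 under DMSO. LRRN1 had a larger change (4.10) but was not called without that array (adjusted p = 0.0567). TMEM229B rose by 2.54 (± 0.24), GPRIN3 by 2.57 (± 0.32) and FOXP2, a forkhead factor, by 2.47 (± 0.42). Their probe sets disagreed, ranging from -0.37 to 2.54 in TMEM229B, from -0.76 to 2.57 in GPRIN3 and from -0.47 to 2.47 in FOXP2. Among the 12 largest decreases, COMMD2 was the 1 that was not dim, and HPD (-3.54), IGFL2 (-2.92) and FOS were among the dim ones. TLCD1, a regulator of membrane fluidity, was the largest riser that was not dim, chosen after the values were seen. It read 7.32, 7.77 and 7.61 with CDT1 siRNA, against 5.70, 5.99 and 5.35 with GL2 siRNA, without overlap (1.89 ± 0.15, adjusted p = 1.69e-09). It rose by 0.59 under DMSO, and the difference of 1.30 was called.

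Other risers that were not dim, chosen likewise, were NME3, a nucleoside diphosphate kinase (1.53 ± 0.17, and 0.64 under DMSO), ITGB8, an integrin chain that activates TGF-beta (1.46 ± 0.19), and TFPI, an inhibitor of tissue factor (1.64 ± 0.36). CCDC85B rose by 1.73 (± 0.36), but its probe sets ranged from -0.87 to 1.73. Those of TFPI ranged from -0.42 to 1.64, with the 2 brighter ones of 5 both higher. Lower ones were KRTAP3-1, a hair keratin-associated protein (-2.01 ± 0.38), the muscle ankyrin repeat gene ANKRD1 (-1.95 ± 0.32) and SERPINH1, a collagen chaperone (-1.92 ± 0.22). KRTAP3-1 differed by 0.09 under DMSO, and the difference of -2.10 was called.

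Set against BRCA1 siRNA under MLN4924, without the 3 doubted libraries, 751 genes (3.8%) were higher and 767 (3.88%) lower with CDT1 siRNA. With all arrays the counts were 405 and 490, or 627 and 369 without centring. These values share the CDT1 arrays with the comparison above. Of the stress list 6 were lower and 1 higher, or 8 and 1 with all arrays. ATF4 differed by -0.78 (± 0.08), VLDLR by -1.20 (± 0.17) and PPP1R15A by -1.22 (± 0.14), all called, while ASNS (-0.45) and TRIB3 (-0.34) were under the 1.5-fold minimum. With all arrays ASNS was called (-0.73). COMMD2 (-3.26), TFAM (-1.50), SEC23A (-1.65) and IFNAR1 (-1.61), picked by their falls in the same CDT1 arrays, were lower against BRCA1 siRNA too. ANP32E, picked together with these genes, averaged 9.47 with CDT1 siRNA and 11.03 with BRCA1 siRNA, with all arrays. Mitotic genes were higher in 23 of 40 and lower in 0, with 0 lower at an unadjusted p under 0.05 by limma, PRC1 (1.54), HMMR (1.30) and PLK1 (1.15) among them. That count rests on leaving out the doubted libraries, since with all arrays as labelled it was 4 of 40 (8 without centring), and PRC1 was 1.05 and PLK1 1.01, both called. CDT1 itself differed by -1.13 (± 0.15), and by -1.57 (± 0.29) with all arrays.

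Against p53 siRNA under MLN4924, 1265 genes (6.4%) were higher and 2500 (12.6%) lower with CDT1 siRNA, and 2545 and 1076 without centring, which moved the median of all genes by 0.30. CDT1 read 6.27, 6.08 and 6.15 with CDT1 siRNA, against 10.29, 10.64 and 10.29 with p53 siRNA. Of the stress list 18 were lower and 0 higher (16 and 1 without centring), with 0 higher at an unadjusted p under 0.05 by limma. COMMD2 (-3.52), TFAM (-1.95), SEC23A (-1.92) and IFNAR1 (-1.36) were lower here as well. ANP32E, picked together with these genes, averaged 9.47 with CDT1 siRNA and 11.97 with p53 siRNA. All of them were picked by their falls in the same CDT1 arrays that are used here. Their lower levels against p53 siRNA are therefore not independent of the comparison with GL2 siRNA. CDKN1A was 3.83 (± 0.17) higher with CDT1 siRNA.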

How the data were processed

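Affymetrix arrays with 54675 probe sets were analysed from the deposited table of linear intensity values, which the authors made with Affymetrix Expression Console (version not given), per the submitters' processing notes. After trimming 2% at each end every array had a mean of 150.02 or just under, so the table was already scaled. The 147 zero values were set to 0.1, the lowest positive signal, and log2 was taken. Probe sets with 1 gene symbol (41091; 1801 had several and 11721 none) gave 19775 genes, each by its probe set of highest mean signal, and arrays were centred on their median gene. The number of arrays, 3 per group, limits the precision. Detection calls were not used here.

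limma 3.58.1 (R 4.3.3) fitted all 14 groups (28 residual degrees of freedom) in 5 comparisons. The GL2 DMSO sets were pooled, since the labels do not say which belongs with the CDT1 arrays. In simulated data of the comparison under MLN4924 with 19775 genes, 7.46%, 52.2% and 69.7% of 1.5, 2 and 4-fold changes were called, and 3 of 19575 unchanged genes. The simulated noise was normal, with the same spread for a gene in every array and no array like GL2 replicate 3. These shares therefore do not give the rate of false calls in the real arrays. Deviations from the group means were not shared by same-numbered arrays of the 2 groups (correlations of -0.11, 0.00 and -0.05). GL2 replicate 3 lies apart in its group, so this check could miss a pairing there.

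The groups and gene lists were chosen with earlier results of these data known. Named genes were CDT1, BRCA1, CDKN1A and MDM2, the 12 largest changes in each direction called with and without GL2 replicate 3 and free of overlap, up to 5 members of each list by the size of the moderated t, and the 5 most positive and negative differences. Others were named after their values were seen. Alternatives changed the scaling, floor, probe set rule, weights, fold minimum, samples and arrays. Promoters came from RefSeq (GRCh38.p14), and Python 3.11.15 was used.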

Additional observations from a re-analysis of the deposited data

Results flagged for a closer look

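The CDT1 siRNA change differed between MLN4924 and DMSO for 245 genes by the interaction term of the limma fit, at an adjusted p under 0.05 and at least 1.5-fold. Among p53 targets the differences, MLN4924 change minus DMSO change on the log2 scale, were -1.70 for CDKN1A, -1.78 for GDF15, -1.40 for TP53INP1 (0.071 and not called over the mean of its probe sets), -1.14 for SESN1, -1.17 for DDB2, -0.94 for FAS, -0.92 for TNFRSF10B, -0.85 for GADD45A, -0.79 for AEN and -0.68 for TRIAP1. Among hypoxia targets they were -1.67 for ALDOC, -1.06 for P4HA2, -1.18 for ANKRD37, -0.86 for MXI1, -0.72 for BNIP3L and -1.12 for ENO2. In the stress list VLDLR differed by -1.35 and ATF3 by -1.04. Mitotic genes differed upward, by 1.17 for PLK1, 1.16 for HMMR, 1.12 for MKI67 and 1.17 for CENPE, as did CCND1 by 1.28. Without GL2 replicate 3 the difference was called for only 1 of the 40 mitotic genes.

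Further called differences were -1.58 for EGR1, -3.40 for FOS, -0.65 for KEAP1, -1.35 for ACTA2, -2.10 for KRTAP3-1, 1.30 for TLCD1 and 0.89 for NME3. The most positive differences were in GPR183 (4.64), OR4C1P (4.12), TEX26 (3.83), LINC02941 (3.36) and SLC16A8 (3.31). The most negative besides FOS were in CST5 (-3.71), HPD (-3.42), IGFL2 (-2.90) and LELP1 (-2.75). All 10 of these were dim in at least 1 of the 2 groups under MLN4924.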

How the results depend on the processing

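Calls under MLN4924 (919 genes with all arrays) numbered 719 to 1252 when each array of the 2 groups was left out in turn, 1564 without the 3 doubted libraries, 1642 with array weights (whose estimate did not converge), 281 at a 2-fold minimum and 1512 with none. The fit of the 2 groups alone called 8, and 1 (LRRN1) without GL2 replicate 3, where 4382 had an unadjusted p under 0.05. Higher and lower calls were 386 and 533, 704 and 353 without centring and 456 and 409 after quantile normalization. With the replicate block 895 were called (376 and 519), and no pairing by these numbers was seen. The difference between treatments (245) was called for 128 to 246 with 1 array left out, falling furthest to 128 without CDT1 DMSO replicate 2, to 145 without CDT1 MLN4924 replicate 1, 153 without CDT1 DMSO replicate 1 and 158 without CDT1 MLN4924 replicate 3. It was called for 671 without the doubted libraries, 380 without centring (247 higher, 133 lower), 159 over the mean of all probe sets, 384 in the fit of its own groups, 970 with array weights, 117 at 2-fold and 227 with the block.

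CDT1 siRNA under DMSO (1257) gave 400 at 2-fold and 2422 with no minimum. Against BRCA1 siRNA, 895 were called with all arrays, 1518 without the doubted libraries, 589 over the mean of all probe sets, 1 in the fit of the 2 groups alone, 1375 with weights, 253 at 2-fold and 1414 with no minimum; against p53 siRNA 1553 at 2-fold (3765 at 1.5-fold). Causes were not tested. Of 129 gene results under 2579 alternatives, 2057 kept direction and side of the threshold, 466 fell short of it, 40 newly passed and 16 changed sign. Sign changes were in BRCA1 (-0.16 without GL2 replicate 3, alone, with the other doubted libraries or in the fit of the 2 groups; -0.16 to 1.61 with 1 array left out), SESN1 (0.0388 without centring, 0.0323 quantile), TNFRSF10B (0.0583 and 0.10), the TP53INP1 difference (0.071 over all probe sets) and the CDT1 difference of 0.02. That was -0.50 without GL2 replicate 3 or the doubted libraries, -0.31 with weights, -0.11 with the second DMSO set, -0.03 without CDT1 MLN4924 replicate 1 or GL2 DMSO set 1 replicate 2, -0.05 without CDT1 DMSO replicate 2 and -0.0044 without GL2 DMSO set 2 replicate 2, within -0.50 to 0.29 with 1 array left out.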
